A study of Homo sapiens with 12 samples.

Results

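Exon and intron reads of 7 genes of the BCL2 family were followed through 12 RNA-seq libraries of the human leukemia line CCRF-CEM, which consists of T lymphoblasts. The genes were chosen by name for their role, with earlier results of these data known. MCL1, BCL2L1 (BCL-XL), BCL2, BCL2L2 (BCL-W) and BCL2A1 (BFL-1) encode survival proteins, and BAX and BAK1 encode the proteins that form pores in the outer mitochondrial membrane. All 7 were found among the 43828 gene places listed, and all 7 passed the filter on low exon counts. The study set cells labelled SLFN11 knockout beside the SLFN11-positive parent line, each given camptothecin or the solvent DMSO. Camptothecin locks topoisomerase I onto DNA. SLFN11 resembles helicases and is known for making cancer cells sensitive to drugs that damage replicating DNA. There were 3 libraries in each of 4 groups. These were knockout cells with 100 nM camptothecin for 4 h, knockout cells with DMSO, wild-type parent cells with 100 nM camptothecin for 4 h, and wild-type parent cells with DMSO. The labels give no time for DMSO, no method for the knockout and no word on clones. They also do not state whether replicates were separate cultures, so p-values cover the spread between libraries alone, which can be technical.

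Cells enter mitochondrial apoptosis when BAX and BAK1 proteins open the outer membrane and cytochrome c leaks out, which starts the caspase cascade. The survival proteins hold BAX and BAK1 in check, and a further group, the BH3-only proteins, blocks the survival proteins or activates the pore formers. MCL1 is known for a very short-lived mRNA and protein, whereas BCL2 and BCL-XL proteins are long-lived. Much of the control over these proteins acts after transcription, so RNA levels are only a part of it.

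Exon reads per library numbered 42439957 to 63606344 in 11 libraries and 135592046 in parent DMSO replicate 1. That library also had the lowest share of intron reads, 26.31% against 28.65% to 33.55% elsewhere. SLFN11 itself was still read in the knockout, at 89.8 ± 1.72 CPM (exon counts scaled to a common library total) with camptothecin and 86.9 ± 1.58 CPM with DMSO. In parent cells it had 120.2 ± 2.38 CPM with camptothecin and 112.3 ± 4.93 CPM with DMSO (SD, n = 3 each), so its RNA level does not check the knockout labels. All 12 T lymphoblast markers passed the filter, and all 5 myeloid markers stayed under 1 CPM in every group, as did the 3 erythroid markers listed. The B-lineage genes CD79A and CD79B also passed it. CD79A had 27.1 ± 3.24 CPM in treated and 29.9 ± 1.04 CPM in untreated knockout cells, and 14.2 ± 0.463 CPM in treated and 20.4 ± 3.06 CPM in untreated parent cells, and CD79B averaged 12.3 to 15.6 CPM over the groups (SD, n = 3 each). The summed T lymphoblast markers were 1680 to 1703 CPM in treated and 1970 to 1987 CPM in untreated knockout cells, and 1402 to 1417 CPM in treated and 1742 to 1836 CPM in untreated parent cells. Whether that movement has a part in the results on the 7 genes was not tested. In bulk RNA, fewer cells of a kind and less RNA per cell cannot be told apart.

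In parent cells, camptothecin went with higher MCL1 and BAK1 exon reads and lower BCL2L1, BCL2A1 and BAX. In knockout cells, BCL2L1 alone passed the test, and it was lower. Calls rest on edgeR's quasi-likelihood test across 23546 genes, at a p under 0.05 after Benjamini-Hochberg adjustment. In knockout cells 0 of the 7 genes were called higher and 1 lower, where 7.30% of all tested genes were called higher and 9.28% lower. In parent cells 2 of the 7 were called higher and 3 lower, where 16.8% of all tested genes were called higher and 17.1% lower. The median log2 change of the 7 was -0.05 in knockout and -0.17 in parent cells, against 0.02 and 0.01 over all tested genes. The difference between both responses, knockout minus parent, was called for 0 of the 7 in the higher direction (1.84% of all tested genes) and for 1, MCL1, in the lower direction (4.47%). At an unadjusted p under 0.05, edgeR had 1 of the 7 higher in knockout cells, BCL2L2, and 1 with a difference in the higher direction, BCL2A1. The difference in the lower direction had 2 at that threshold, MCL1 and BAK1 (edgeR unadjusted p = 0.0157 for BAK1). BCL2, not called, was lower in parent cells at it (edgeR unadjusted p = 0.0335).

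**Figure D1:**
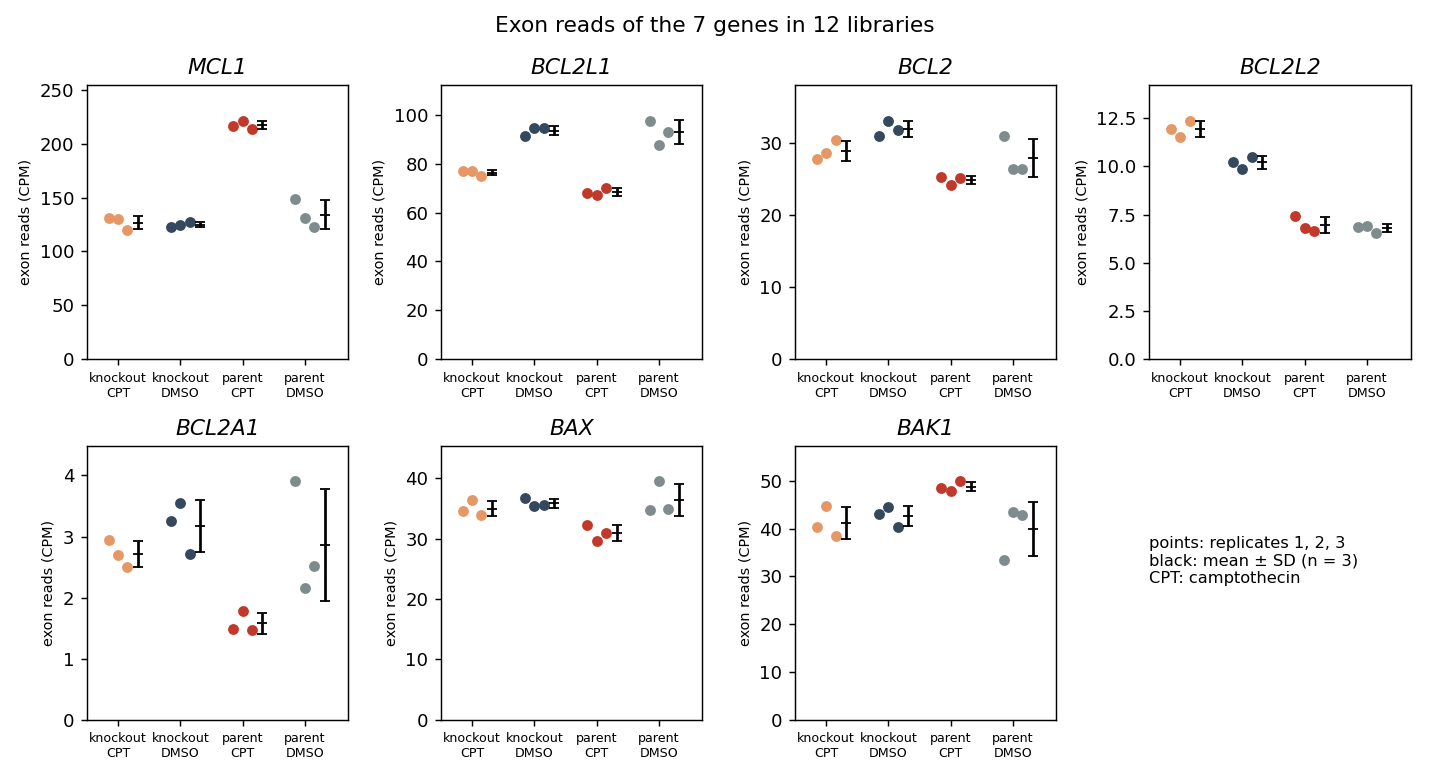
Exon reads of each gene, in scaled counts (CPM) on the vertical axis, for the 3 libraries of each group (CPT, camptothecin), with black bars for mean ± SD. MCL1 stands at 214 to 222 CPM in treated parent cells and at 120 to 149 CPM in the other 9 libraries.

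MCL1 (hg19 chr1:150547031-150552065), the survival gene with the most exon reads per length, was higher in treated parent cells than in any other group. Knockout libraries had 131, 130 and 120 CPM with camptothecin, against 123, 125 and 127 CPM with DMSO. These ranges overlapped. Parent libraries had 217, 222 and 214 CPM with camptothecin, against 149, 131 and 123 CPM with DMSO. All 3 treated parent libraries lay above all 3 untreated ones, of which replicate 1 was the highest. The log2 change was 0.02 ± 0.07 (SE) in knockout cells (edgeR adjusted p = 0.875, 95% interval -0.12 to 0.17) and 0.69 ± 0.07 in parent cells (edgeR adjusted p = 6.41e-07), a ratio of 1.62. The responses differed by -0.67 ± 0.10, knockout minus parent (edgeR adjusted p = 0.000307). Without parent DMSO replicate 1 the parent change was 0.78. With camptothecin, MCL1 was lower in knockout than in parent cells by a log2 change of -0.78 (edgeR adjusted p = 2.25e-07). With DMSO the knockout minus parent change was -0.11 (edgeR adjusted p = 0.330).

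BCL2L1 (hg19 chr20:30252254-30311791), which encodes BCL-XL, fell with camptothecin in both genotypes. Knockout libraries had 77.0, 77.0 and 75.0 CPM with camptothecin, against 91.4, 94.6 and 94.5 CPM with DMSO. Parent libraries had 68.2, 67.0 and 70.2 CPM with camptothecin, against 97.6, 87.8 and 93.1 CPM with DMSO. Treated and untreated ranges were apart in both genotypes. On the log2 scale the change was -0.29 ± 0.06 in knockout cells (edgeR adjusted p = 0.00157) and -0.44 ± 0.06 in parent cells (edgeR adjusted p = 1.17e-05). The difference of 0.15, with a 95% interval of -0.02 to 0.32, was not called (edgeR adjusted p = 0.333). With scaling by library size alone the knockout change was -0.14 and missed the threshold (edgeR adjusted p = 0.0517). Under that scaling the median log2 change over all tested genes was 0.17 in knockout and 0.14 in parent cells, against 0.02 and 0.01 with the TMM factors used elsewhere. MCL1 in knockout cells stood at 0.18 under it (edgeR adjusted p = 0.0172), next to that median.

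BCL2 (hg19 chr18:60790578-60987360), the gene that gave the family its name, did not pass the test on exon reads in either response. Knockout libraries had 27.7, 28.5 and 30.4 CPM with camptothecin, against 31.0, 33.0 and 31.7 CPM with DMSO. Parent libraries had 25.2, 24.2 and 25.1 CPM with camptothecin, against 30.9, 26.4 and 26.4 CPM with DMSO. Every treated library lay below every untreated one of its genotype, but the ranges were close. On the log2 scale BCL2 stood at -0.14 in knockout cells (edgeR adjusted p = 0.209) and -0.17 in parent cells (edgeR adjusted p = 0.0866).

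BCL2A1 (hg19 chr15:80253230-80263787), a survival gene induced by NF-kappaB in lymphocytes, was near the low end of the measured levels. It held 80 to 110 exon reads per treated parent library and 113 to 459 per untreated parent library. Knockout libraries had 2.94, 2.70 and 2.51 CPM with camptothecin, against 3.25, 3.55 and 2.72 CPM with DMSO. Parent libraries had 1.48, 1.78 and 1.47 CPM with camptothecin, against 3.90, 2.16 and 2.52 CPM with DMSO. The knockout ranges overlapped, and the parent ranges did not. Its log2 change was -0.22 ± 0.20 in knockout cells (edgeR adjusted p = 0.529) and -0.88 ± 0.21 in parent cells (edgeR adjusted p = 0.00308). Without parent DMSO replicate 1, the highest of that group, the parent change was -0.56 (edgeR adjusted p = 0.0215). The difference of 0.66 (95% interval 0.04 to 1.27) was not called (edgeR adjusted p = 0.221), and without that library it was 0.35 (edgeR adjusted p = 0.439).

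BCL2L2 (hg19 chr14:23767998-23780967), which encodes BCL-W, differed on exon reads between the genotypes more than between the treatments. Knockout libraries had 11.96, 11.54 and 12.37 CPM with camptothecin, against 10.3, 9.85 and 10.5 CPM with DMSO. Parent libraries had 7.42, 6.79 and 6.65 CPM with camptothecin, against 6.88, 6.92 and 6.55 CPM with DMSO. All 6 knockout libraries lay above all 6 parent libraries. The knockout minus parent log2 change was 0.78 ± 0.09 with camptothecin (edgeR adjusted p = 3.98e-06) and 0.59 ± 0.09 with DMSO (edgeR adjusted p = 0.00016). With reads over the whole gene, introns included, both were smaller, at 0.33 with camptothecin (edgeR adjusted p = 0.00154) and 0.28 with DMSO (edgeR adjusted p = 0.00979), and the camptothecin response was 0.32 in knockout cells (edgeR adjusted p = 0.00419) and 0.27 in parent cells (edgeR adjusted p = 0.00615). On exon reads the camptothecin response was 0.23 in knockout cells (edgeR adjusted p = 0.0897) and 0.04 in parent cells (edgeR adjusted p = 0.808). The knockout response passed the threshold without parent DMSO replicate 1 (0.23, edgeR adjusted p = 0.0382), in a fit that called 6640 genes in place of 3902. All these BCL2L2 values are uncertain. Of the 4189 exon bases of BCL2L2, 73 (1.74%) are shared with no other gene, and these held 0 to 14 reads per library. The readthrough gene BCL2L2-PABPN1, which overlaps it, had a knockout minus parent log2 change of -0.27 with DMSO (edgeR adjusted p = 0.249). HOMEZ, which also overlaps it, moved the same way as BCL2L2 with camptothecin, at 0.36 for treated knockout minus treated parent cells (edgeR adjusted p = 0.0457) and 0.43 for the knockout response (edgeR adjusted p = 0.0302), and stood at 0.12 between the untreated genotypes (edgeR adjusted p = 0.593).

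BAX and BAK1, the pore-forming pair, were called in opposite directions in parent cells. Windows of 250 bases upstream of both starts (RefSeq, GRCh38.p14) are shown because the genes carry the same function and moved apart on exon reads. On intron reads neither parent change was called, at -0.30 for BAX (edgeR adjusted p = 0.128) and -0.10 for BAK1 (edgeR adjusted p = 0.639). In BAX, chr19:48954625-48954874 on the plus strand, the capitals mark the E-box CACGTG. In BAK1, chr6:33580277-33580526 on the minus strand, the capitals mark a match to the p53 half-site.
BAX: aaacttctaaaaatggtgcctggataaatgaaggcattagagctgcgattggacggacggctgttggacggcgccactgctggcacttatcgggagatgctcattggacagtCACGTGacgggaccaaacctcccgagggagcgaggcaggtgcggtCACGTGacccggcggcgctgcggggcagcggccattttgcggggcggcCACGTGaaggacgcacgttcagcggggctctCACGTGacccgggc
BAK1: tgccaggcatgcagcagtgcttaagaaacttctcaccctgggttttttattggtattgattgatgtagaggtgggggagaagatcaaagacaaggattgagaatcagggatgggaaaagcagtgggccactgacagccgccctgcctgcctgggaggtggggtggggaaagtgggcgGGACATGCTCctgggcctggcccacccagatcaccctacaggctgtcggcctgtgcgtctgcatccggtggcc
The E-box stood 4 times in the BAX window, at -138, -93, -45 and -14 from the start, and in none of the other 5 windows. BCL2, BCL2A1 and BAK1 had 1 window each and BCL2L1 had 2. MCL1 and BCL2L2 had no entry. The p53 half-site stood once in the BAK1 window, at -73. On both strands, 6.32% of 34943 RefSeq windows of this length held the E-box and 5.58% the p53 half-site. The AP-1 motif TGANTCA (6.59% of windows), the CRE motif TGACGTCA (1.63%) and the NF-kappaB motif (5.20%) matched none of the 6 windows. The BAX window was 62.8% G or C with 25 CG pairs, the BAK1 window 58.0% with 5, and the BCL2A1 window 38.8% with 2, against medians of 58.0% and 11 over all windows. The E-box was added after the sequences were seen, a match is no evidence of binding, and none of the motifs was measured in these cells.

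BAX (hg19 chr19:49458071-49465054) had 34.6, 36.4 and 34.0 CPM in knockout libraries with camptothecin, against 36.8, 35.4 and 35.6 CPM with DMSO, with overlap. Parent libraries had 32.3, 29.7 and 30.9 CPM with camptothecin, against 34.8, 39.5 and 34.9 CPM with DMSO, with no overlap. Its log2 change was -0.04 ± 0.07 in knockout cells (edgeR adjusted p = 0.783) and -0.23 ± 0.07 in parent cells (edgeR adjusted p = 0.0122). The parent call was lost without parent DMSO replicate 2 (-0.17, edgeR adjusted p = 0.069), without parent camptothecin replicate 2 (-0.20, edgeR adjusted p = 0.070), with library size alone (-0.11, edgeR adjusted p = 0.270) and in a fit of the parent libraries only (edgeR adjusted p = 0.0595).

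BAK1 (hg19 chr6:33540328-33548018) had 40.4, 44.8 and 38.4 CPM in knockout libraries with camptothecin, against 42.97, 44.6 and 40.3 CPM with DMSO, with overlap. Parent libraries had 48.5, 47.9 and 49.9 CPM with camptothecin, against 33.5, 43.4 and 42.95 CPM with DMSO. Every treated parent library was above every untreated one, and untreated replicate 1 was the lowest. Its log2 change was -0.05 ± 0.09 in knockout cells (edgeR adjusted p = 0.782) and 0.29 ± 0.09 in parent cells (edgeR adjusted p = 0.0174). Without parent DMSO replicate 1 the parent change was 0.18 (edgeR adjusted p = 0.0183). The call was lost without parent camptothecin replicate 3 (edgeR adjusted p = 0.0628) and in a fit of the parent libraries only (edgeR adjusted p = 0.0668). The difference of -0.34 (95% interval -0.61 to -0.07) was not called (edgeR adjusted p = 0.133), and without parent DMSO replicate 1 it was -0.22 (edgeR adjusted p = 0.0652). The difference of BAX, 0.20, was not called either (edgeR adjusted p = 0.269).

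**Figure D2:**
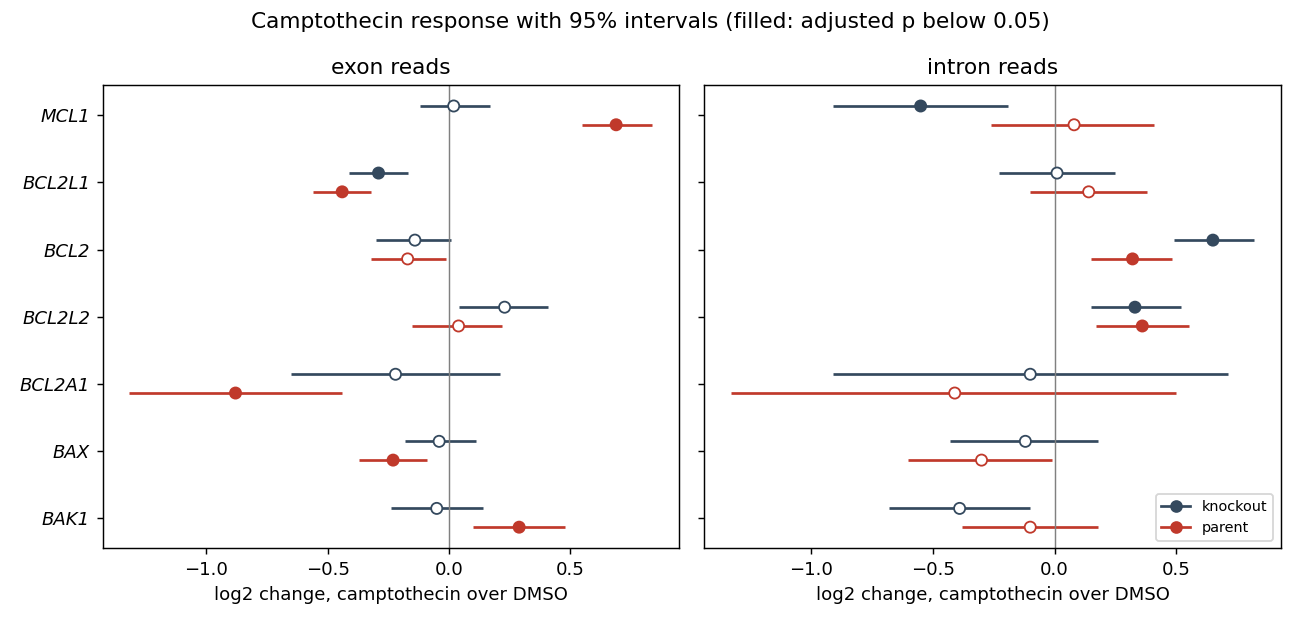
Log2 change with camptothecin over DMSO for the 7 genes, on exon reads (left) and intron reads (right), with 95% intervals, filled where the adjusted p was under 0.05, for knockout above parent cells. MCL1 exon reads stand at 0.02 in knockout and 0.69 in parent cells.

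Levels can be set beside each other only per length of exon. Expressed as CPM per kb of exon, MCL1 led in all 4 groups, with BCL2L1 and BAK1 next, and then BAX. In treated parent cells MCL1 stood at 50.7 to 52.5, apart from BAK1 at 21.2 to 22.0, and BAK1 overlapped BCL2L1 at 20.2 to 21.2. In untreated parent cells MCL1, at 29.1 to 35.4, overlapped BCL2L1, at 26.5 to 29.5. In knockout cells MCL1 was 28.4 to 31.0 and BCL2L1 22.6 to 23.3 with camptothecin, and 29.1 to 30.1 and 27.6 to 28.6 with DMSO. BCL2, BCL2L2 and BCL2A1 held the last 3 places in every group, at 1.35 to 4.31 in all libraries.

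The ratio of MCL1 to BCL2L1 per kb was 1.25 to 1.33 in treated and 1.03 to 1.06 in untreated knockout cells, and 2.39 to 2.60 in treated and 1.04 to 1.20 in untreated parent cells. The ratio of BAK1 to BAX per kb was 1.29 to 1.41 in treated and 1.29 to 1.44 in untreated knockout cells, and 1.71 to 1.85 in treated and 1.10 to 1.41 in untreated parent cells. MCL1 made up 64.9% to 66.4% of the summed survival genes in treated parent cells and 43.4% to 48.9% in the other 9 libraries. The sum of the 5 survival genes over the sum of both pore genes was 1.86 to 2.03 in treated and 1.99 to 2.15 in untreated knockout cells, and 2.30 to 2.43 in treated and 1.88 to 2.62 in untreated parent cells. The upper end of the untreated parent range, 2.62, was replicate 1, and its group mates had 1.88 and 1.99. The summed ratio therefore overlapped between treated and untreated parent cells only through that library. These are RNA ratios, with no test because both sums were chosen for the purpose.

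**Figure D3:**
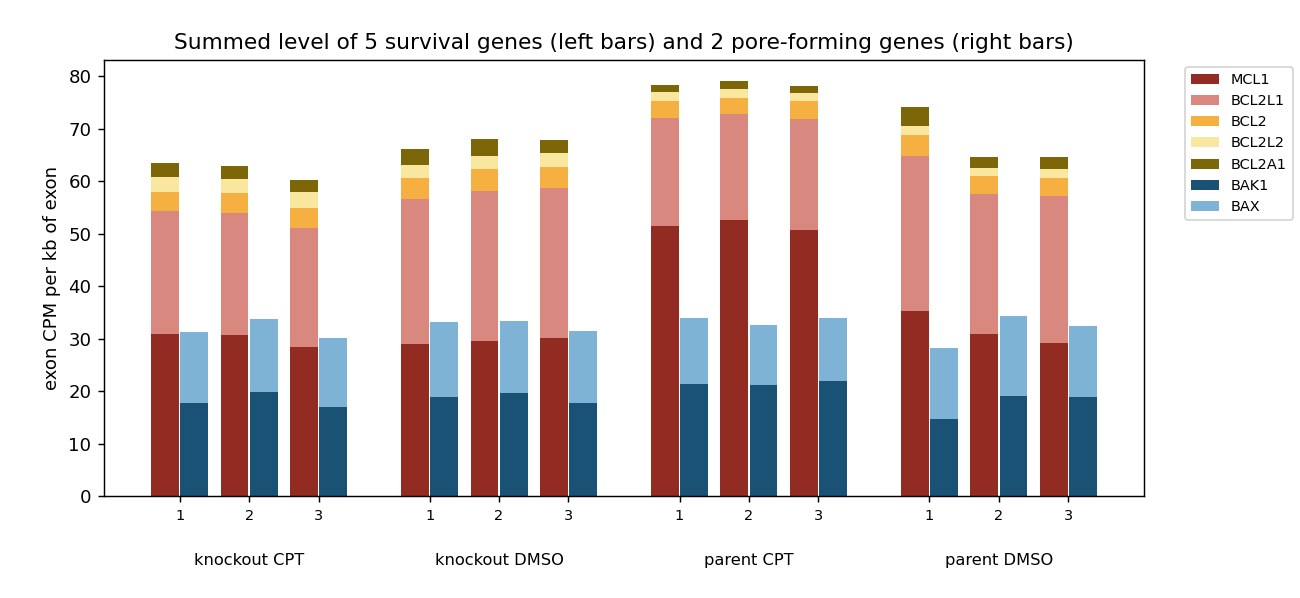
Exon CPM per kb of exon, stacked over the 5 survival genes (left bar of each pair) and the 2 pore-forming genes (right bar), 1 pair per library (numbers are replicates). MCL1 fills 64.9% to 66.4% of the survival bar in treated parent cells and 43.4% to 48.9% elsewhere.

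Between genotypes, 1 of the 7 genes was called higher with DMSO, BCL2L2, and 0 lower (0 also at an unadjusted p under 0.05 in edgeR), where 8.26% of all tested genes were called higher and 7.44% lower. With camptothecin 4 were called higher in knockout than in parent cells, BCL2L2, BCL2A1, BCL2 and BCL2L1, and 1 lower, MCL1, where 13.4% of all tested genes were called higher and 14.6% lower. The BCL2A1 change was 0.78 ± 0.21 (edgeR adjusted p = 0.0095). Those of BCL2 (0.22, edgeR adjusted p = 0.0365) and BCL2L1 (0.16, edgeR adjusted p = 0.0473) were called in 10 and 7 of 20 alternative settings. BAX (0.18, edgeR adjusted p = 0.0592) and BAK1 (-0.24, edgeR adjusted p = 0.0520) missed the threshold. Without parent DMSO replicate 1, both passed it with the same changes (edgeR adjusted p = 0.00937 for BAX and 0.00051 for BAK1), and BCL2 passed it with DMSO (0.27, edgeR adjusted p = 0.00151). Calls over all genes rose too without that library, to 9313 in place of 6583 with camptothecin and to 4327 in place of 3697 with DMSO.

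Intron reads come largely from unspliced RNA, and a change on exons beside a different one on introns is a description of both, not of a rate. On introns 3 of the 7 genes were called in knockout cells (16.9% of 19908 tested genes) and 2 in parent cells (26.3%). BCL2, whose introns span 189118 bases, rose in both. Its knockout libraries had 111, 114 and 133 intron CPM with camptothecin, against 80.5, 73.4 and 73.4 intron CPM with DMSO. Its parent libraries had 86.8, 92.0 and 99.7 intron CPM with camptothecin, against 70.5, 76.5 and 76.7 intron CPM with DMSO. Treated and untreated ranges were apart in both genotypes. The log2 change on introns was 0.65 ± 0.08 in knockout cells (edgeR adjusted p = 5.21e-06) and 0.32 ± 0.08 in parent cells (edgeR adjusted p = 0.00493). The difference of 0.34 was not called (edgeR adjusted p = 0.0877), but it was without parent DMSO replicate 1 (0.38, edgeR adjusted p = 0.0159). Without that library the intron difference was called for 2057 genes in place of 1158.

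MCL1 introns are 817 bases long and held 101 to 541 reads per library. The intron level was 5.17, 6.70 and 4.49 CPM in knockout libraries with camptothecin, against 7.31, 7.52 and 9.21 CPM with DMSO. Parent libraries had 10.5, 11.1 and 11.2 CPM with camptothecin, against 12.3, 10.1 and 8.35 CPM with DMSO. The knockout ranges were apart and the parent ranges overlapped. The log2 change was -0.55 ± 0.17 in knockout cells (edgeR adjusted p = 0.0339) and 0.08 ± 0.16 in parent cells (edgeR adjusted p = 0.785). The knockout call was lost in 7 alternatives, among them library size alone (-0.46, edgeR adjusted p = 0.0655) and leaving out knockout DMSO replicate 3 (-0.44, edgeR adjusted p = 0.166), knockout camptothecin replicate 3 (-0.42, edgeR adjusted p = 0.151) and 3 more libraries of that genotype. The intron difference of -0.62, knockout minus parent, was not called (edgeR adjusted p = 0.140). It was called without parent DMSO replicate 1 (-0.79, edgeR adjusted p = 0.0264), where 2057 genes were called in place of 1158.

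BCL2L2 introns rose by 0.33 in knockout cells (edgeR adjusted p = 0.0137) and by 0.36 in parent cells (edgeR adjusted p = 0.00473), beside knockout minus parent changes of 0.05 with camptothecin (edgeR adjusted p = 0.734) and 0.07 with DMSO (edgeR adjusted p = 0.652). On the intron stretches that no other gene shares, the changes were 0.19 (edgeR adjusted p = 0.657) and 0.21 (edgeR adjusted p = 0.577). Its overlapping neighbour PPP1R3E rose on exons by 0.58 in knockout cells (edgeR adjusted p = 2.12e-05) and by 0.38 in parent cells (edgeR adjusted p = 0.000502). The intron changes of BCL2L1, BCL2A1, BAX and BAK1 were not called in either response. BAK1 in knockout cells (-0.39) was called without parent DMSO replicate 1 (edgeR adjusted p = 0.031), where 4840 genes were called in place of 3363. On introns the difference of responses was called for 0 of the 7 (5.82% of all tested genes), and at an unadjusted p under 0.05 for 2, MCL1 and BCL2. The untreated genotype comparison called 0 of the 7 on introns (14.6%), and 3 had an unadjusted p under 0.05, MCL1, BCL2L1 and BCL2A1. With camptothecin 3 were called between genotypes on introns (28.6%). MCL1 was lower in knockout cells (-0.99, edgeR adjusted p = 0.000117), and BCL2 (0.36, edgeR adjusted p = 0.00146) and BCL2A1 (1.44, edgeR adjusted p = 0.0127) were higher. BCL2A1 introns held 10 to 16 reads per treated parent library and 23 to 39 per treated knockout library. The BCL2A1 call was lost without parent camptothecin replicate 1 (1.23, edgeR adjusted p = 0.065).

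**Figure D4:**
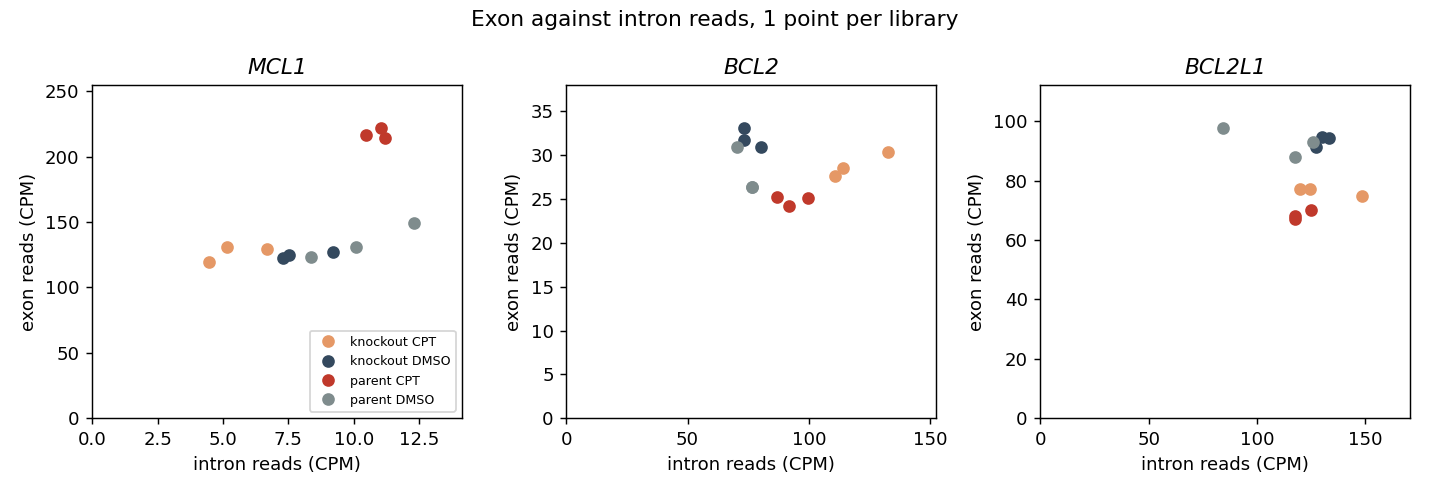
Exon CPM against intron CPM for MCL1, BCL2 and BCL2L1, 1 point per library, with the groups in colour (CPT, camptothecin). Treated knockout libraries have the most BCL2 intron reads, 111 to 133 CPM, and the fewest of MCL1, 4.49 to 6.70 CPM.

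The exon change minus the intron change was tested in a fit of both counts with the library as a block, over 17351 genes. In knockout cells 2 of the 7 genes were called (7.34% of all tested genes), and in parent cells 3 (18.9%). For MCL1 it was 0.58 ± 0.13 in knockout cells (edgeR adjusted p = 0.0128) and 0.62 ± 0.12 in parent cells (edgeR adjusted p = 0.00178). The knockout call was lost without knockout camptothecin replicate 1 (0.53, edgeR adjusted p = 0.0593), knockout camptothecin replicate 3 (0.48, edgeR adjusted p = 0.0758) or knockout DMSO replicate 3 (0.49, edgeR adjusted p = 0.085). The difference between these values was -0.04, with a 95% interval of -0.42 to 0.34 (edgeR adjusted p = 0.963). For BCL2 the value was -0.79 ± 0.10 in knockout cells (edgeR adjusted p = 0.000111) and -0.47 ± 0.10 in parent cells (edgeR adjusted p = 0.00396). BCL2L1 was called in parent cells (-0.59 ± 0.13, edgeR adjusted p = 0.00502) and not in knockout cells (-0.29, edgeR adjusted p = 0.246). Parent DMSO replicate 1 had 3.11 BCL2L1 exon reads per intron read, against 1.07 to 1.76 in the other 11 libraries, and without it the value was -0.28 in knockout cells (edgeR adjusted p = 0.00833) and -0.38 in parent cells (edgeR adjusted p = 0.0013). That fit called 2485 genes in place of 1273 in knockout cells and 3416 in place of 3275 in parent cells. The parent value of BCL2L2, -0.32, was called only without single libraries, among them parent DMSO replicate 1 (-0.39, edgeR adjusted p = 0.0307). The difference between genotypes was called for 0 of the 7 (0.559% of all tested genes), with an unadjusted p under 0.05 for 1, BCL2.

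The BH3-only genes, whose products set the pore in motion, were called in the higher direction or not at all. In knockout cells 3 of 8 rose and 0 fell (BCL2L11, BAD and BMF, median log2 change 0.46), and in parent cells 4 of 8 rose and 0 fell (BCL2L11, BBC3, PMAIP1 and BMF, median 0.91). Of all tested genes, 7.30% were called higher and 9.28% lower in knockout cells, and 16.8% higher and 17.1% lower in parent cells. BBC3, which encodes PUMA, had 1.91 ± 0.324 CPM in treated and 1.23 ± 0.316 CPM in untreated knockout cells, and 8.83 ± 0.316 CPM in treated and 0.812 ± 0.380 CPM in untreated parent cells (SD, n = 3 each). Its change was 0.64 in knockout cells (edgeR adjusted p = 0.0954) and 3.44 ± 0.25 in parent cells (edgeR adjusted p = 1.84e-08). BMF had the largest called change of the list in knockout cells, at 1.65 ± 0.35 (edgeR adjusted p = 0.00305), and stood at 1.42 in parent cells (edgeR adjusted p = 0.00584). Its level was low, at 1.51 ± 0.368 CPM in treated and 0.482 ± 0.0919 CPM in untreated knockout cells. In parent cells BMF had 0.809 ± 0.121 CPM with camptothecin and 0.324 ± 0.161 CPM with DMSO (SD, n = 3 each). The difference of responses was called for 2 of 8, both in the lower direction, BBC3 and PMAIP1 (NOXA, a BH3-only protein that binds MCL1). Of all tested genes, 1.84% were called higher and 4.47% lower in that difference. PMAIP1 changed by 0.02 in knockout cells (edgeR adjusted p = 0.930) and by 0.96 in parent cells (edgeR adjusted p = 6.21e-07), a difference of -0.94 (edgeR adjusted p = 0.000253). PMAIP1 was named after its values were seen.

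Genes that act on MCL1 protein, among them the ubiquitin ligases HUWE1, FBXW7, BTRC and MARCH5 and the deubiquitinases USP9X and USP13, were called lower more often than higher. In knockout cells 0 of 7 rose and 3 fell (HUWE1, BTRC and USP9X, median -0.24), and in parent cells 1 of 7 rose, MARCH5, and 5 fell (median -0.42), beside the shares of all tested genes given for the BH3-only genes. HUWE1 fell by 0.44 on the log2 scale in knockout cells (edgeR adjusted p = 0.0113) and by 0.41 in parent cells (edgeR adjusted p = 0.00866). Its treated knockout libraries were widely spread, at 235.9 ± 47.5 CPM, against 321.1 ± 5.4 CPM with DMSO. Parent cells had 251.2 ± 12.4 CPM with camptothecin and 334.0 ± 34.3 CPM with DMSO (SD, n = 3 each). USP9X, which spares MCL1 from degradation, had 113.9 ± 11.7 CPM in treated and 152.2 ± 1.56 CPM in untreated knockout cells, and 97.9 ± 2.66 CPM in treated and 159.8 ± 5.46 CPM in untreated parent cells (SD, n = 3 each). Its change was -0.42 in knockout cells (edgeR adjusted p = 0.000331) and -0.71 in parent cells (edgeR adjusted p = 4.67e-07). MARCH5 changed by -0.15 in knockout cells (edgeR adjusted p = 0.218) and by 0.45 in parent cells (edgeR adjusted p = 0.000225). The difference of responses was called for 0 of the 7 in the higher direction (1.84% of all tested genes). In the lower direction (4.47%) it was called for 1, MARCH5 (-0.60, edgeR adjusted p = 0.00272). For USP9X the difference of 0.29 was not called (edgeR adjusted p = 0.0898).

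Of 6 genes for membrane proteins linked to the BCL2 family, 0 were called in knockout cells (median -0.14, with 3 lower at an unadjusted p under 0.05 in edgeR). In parent cells 0 rose and 5 fell (VDAC1, VDAC3, MTCH2, BNIP3L and BCAP31, median -0.36). Of all tested genes, 7.30% were called higher and 9.28% lower in knockout cells, and 16.8% higher and 17.1% lower in parent cells. BNIP3L, a mitophagy receptor, had the largest fall, -0.62 in parent cells (edgeR adjusted p = 7.84e-06), beside -0.17 in knockout cells (edgeR adjusted p = 0.163). The difference of responses, knockout minus parent, was called for 1 of the 6, BNIP3L, in the higher direction (0.46, edgeR adjusted p = 0.0171). It was called for 0 in the lower direction, and 4 were higher at an unadjusted p under 0.05 in edgeR. Of all tested genes, 1.84% were called higher and 4.47% lower in that difference. Downstream of the pore, 1 of 11 genes rose in knockout cells and 0 fell (CASP9, 0.69, edgeR adjusted p = 0.0165), and 6 rose and 3 fell in parent cells (median 0.07 in knockout and 0.22 in parent cells). The largest parent rise was that of BIRC3, an inhibitor of apoptosis, at 1.57 ± 0.10 (edgeR adjusted p = 2.82e-09). The largest fall was that of CASP6, an executioner caspase, at -0.43 (edgeR adjusted p = 0.000786). The difference of responses was called for 0 of the 11 in the higher direction and for 3 in the lower, CYCS, BIRC2 and BIRC3. Of the other relatives, 4 of 6 were tested in edgeR, 0 were called in knockout cells (0 also at an unadjusted p under 0.05), and 2 rose in parent cells, BCL2L12 (0.27, edgeR adjusted p = 0.0363) and BCL2L13. Their difference of responses was called for 0 in the higher direction and for 1, BCL2L13, in the lower (-0.36, edgeR adjusted p = 0.0215). The shares of all tested genes given for the 6 membrane protein genes stand beside these counts too. The medians over all tested genes, given above, were near 0.

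The genes whose exon levels ran closest to each of the 7 over the 12 libraries were ranked by the root mean square difference in centred log2 CPM among 16156 genes. For MCL1 these were ALAS1 (0.0492), ZNF622 (0.0579) and NFIL3 (0.0642), beside a spread of MCL1 itself of 0.338. For BCL2L1 they were PRKAR1B (0.0373), LAMP2 and ADD1. For BAX they were PIP4K2B, TCF3 and KLHDC3, and for BAK1 they were AGPAT4, ARFRP1 and RP4-559A3.7. For BCL2 they were PHF20, SOGA3 and GFPT1, and for BCL2A1, whose own spread was 0.434, RP13-977J11.2 (0.159), C10orf25 and FLOT1. The nearest to BCL2L2 were the pseudogenes CSPG4P9, CSPG4P10 and CSPG4P8. None of the 7 was among the 3 nearest of another. The points share libraries and depth, and no test is given.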

How the data were processed

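The authors deposited, per gene and library, counts of reads over exons, introns and the whole gene, and over stretches that no other gene shares, per the file headers. The submitters' processing notes name the build hg19 and, with no roles, STAR 2.5.4a, Picard 2.9.2, Trimmomatic 0.39 and Trim Galore 0.6.2. Which tool counted reads, on what annotation and with or without strand is not stated, so an antisense or overlapping gene can share reads with a gene it covers. The names of the deposited tables mark duplicates as removed. Counts of over 6 digits were deposited rounded to 6 significant digits. The deposited TPM columns, treated as a score, were not used. Genes that a table does not list were set to 0 reads.

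Exon counts were tested with edgeR 4.0.16 (quasi-likelihood, robust prior, TMM scaling, filterByExpr) in R 4.3.3, as 4 group means over all 12 libraries, for 5 contrasts. Intron counts had their own filter and scaling. The exon minus intron fit used both counts with the library as a block. The standard error (SE) is the log2 change before shrinkage over the square root of F and restates the test. Alternatives were other scaling (RLE, library size alone), no filter, a replicate block, reads over the whole gene or unique to it, only the groups compared, DESeq2 1.42.0 and leaving out each library. The scripts were tested on simulated data. The 7 genes and all lists were chosen with earlier results of these data known. Named are the 7 genes, the largest called rise and fall per list and treatment comparison, the 3 nearest genes of each of the 7 by level, and SLFN11. Other names were chosen after their values were seen. Exon reads per library were 42439957 to 135592046. Removing duplicates where reads carry no molecular identifier lowers the counts of abundant genes most.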

Additional observations from a re-analysis of the deposited data

Results flagged for a closer look

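The MCL1 response to camptothecin on exon reads differed between the genotypes in a test of the difference itself. It was 0.02 in knockout cells and 0.69 in parent cells, a difference of -0.67 on the log2 scale (edgeR adjusted p = 0.000307). In knockout cells 2 of the 3 treated libraries stood above all 3 DMSO libraries and the third stood below them. In parent cells all 3 treated libraries stood above all 3 DMSO libraries. Over 19 alternatives the difference ran from -0.75 to -0.60, and it was called in all 19.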

How the results depend on the processing

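Calls of MCL1, BCL2L1 and BCL2A1 in parent cells on exon reads held in all 20 alternatives run, those of BAK1 in 18 and of BAX in 16, with each direction kept. The number of the 7 genes called on exon reads was 3 in place of 5 in the parent response with only the groups compared (6523 in place of 7978 over all genes). In the knockout response, where 1 was called beside 3902 over all genes, it was 2 with library size alone (5967). There it was also 2 with only the groups compared (5932) and 3 with reads over the whole gene (4458). In the untreated comparison it was 2 with library size alone (3934 in place of 3697 over all genes), and 0 with exon reads unique to the gene (3323), where BCL2L2 failed the filter. On introns it was 1 in the parent response with intron reads unique to the gene (3937 in place of 5231 over all genes). In the untreated intron comparison, with 2907 over all genes, it was 1 each with library size alone (2897), no filter (3453) and the replicate block (2984). BCL2 in knockout cells reversed with reads over the whole gene, which include its introns (0.32, edgeR adjusted p = 0.00216). On exon reads DESeq2 called the same genes as edgeR in the knockout, parent, difference and untreated comparisons (1, 5, 1 and 1 of the 7) and BAX in addition in the treated one. Over all genes DESeq2 called 4354, 8327, 2085 and 4164 in those comparisons and 6920 in the treated one. With library size alone 5967 genes, in place of 3902, were called in the knockout response. Leaving out single libraries moved the calls over all genes as well, given here in brackets. On exons it gave 1 to 2 calls of the 7 in the knockout response (2519 to 6640), 1 to 2 in the untreated comparison (2385 to 4327) and 3 to 7 in the treated one (5004 to 9313). On introns it gave 1 to 4 in the knockout response (2199 to 4840), 0 to 2 in the difference (690 to 2057) and 0 to 1 in the untreated comparison (1978 to 3354). The knockout exon minus intron value had 1 to 3 (1273 genes with all libraries and 2485 without parent DMSO replicate 1).

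The replicate numbers did not pair the libraries. The correlations of same-numbered deviations were 0.02, -0.04 and -0.06 in knockout and 0.05, -0.08 and 0.01 in parent cells. With the replicate block, 3723 genes in place of 3902 were called in the knockout response, 7931 in place of 7978 in the parent response and 1348 in place of 1487 in the difference, and 4 in place of 5 of the 7 genes in the treated comparison, which had 6453 in place of 6583. BCL2A1 and MCL1 introns are limited by depth.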

Other observations

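With camptothecin in both genotypes, pathway genes outside the 7 also differed between knockout and parent cells, where 13.4% of all tested genes were called higher and 14.6% lower. Of the BH3-only genes 2 of 8 were higher in knockout cells, BID (0.22, edgeR adjusted p = 0.0319) and BMF (0.90, edgeR adjusted p = 0.0486), and 2 were lower, BBC3 (-2.20, edgeR adjusted p = 1.68e-06) and PMAIP1 (-0.61, edgeR adjusted p = 0.000102). Downstream of the pore 2 of 11 were higher, APAF1 and XIAP, and 4 were lower, CYCS (cytochrome c, -0.49, edgeR adjusted p = 2.08e-05), DIABLO, BIRC2 and BIRC3 (-0.85, edgeR adjusted p = 3.79e-06). With DMSO, PMAIP1 was higher in knockout cells (0.33, edgeR adjusted p = 0.0228), and so was BIRC3 (0.62, edgeR adjusted p = 0.000234), where 8.26% of all tested genes were called higher and 7.44% lower.

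Of the 12 T lymphoblast markers, 6 were higher and 1 lower in knockout than in parent cells with camptothecin, and 3 were higher and 2 lower with DMSO. The shares of all tested genes are those given for the pathway genes above. CD1A, a cortical thymocyte marker, was higher by a log2 change of 1.58 with camptothecin (edgeR adjusted p = 1.27e-10) and 1.25 with DMSO (edgeR adjusted p = 3.8e-09). CD7 was lower, by -0.20 with camptothecin (edgeR adjusted p = 0.0152) and -0.46 with DMSO (edgeR adjusted p = 1.89e-05). LMO2 stood at -0.20 with camptothecin (edgeR adjusted p = 0.104) and was lower with DMSO (-0.40, edgeR adjusted p = 0.00296). The B-lineage gene CD79A was higher by 0.94 with camptothecin (edgeR adjusted p = 2.62e-06) and 0.55 with DMSO (edgeR adjusted p = 0.00107). Of 4 epithelial and fibroblast markers, KRT18 and COL1A2 failed the filter and COL1A1 was not called. EPCAM, an epithelial adhesion gene, had 7.46 ± 0.464 CPM in treated and 6.76 ± 0.0521 CPM in untreated knockout cells, and 1.29 ± 0.225 CPM in treated and 1.30 ± 0.359 CPM in untreated parent cells (SD, n = 3 each). Single genes here were named after their values were seen.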
